A study of Homo sapiens with 6 samples.

Results

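The MYC, MAX and MXD network is a set of basic helix-loop-helix leucine zipper proteins and was represented here by 10 genes, namely MYC, MAX, MXD1, MXD3, MXD4, MXI1, MNT, MGA, MLX and MLXIP. Members were found by their symbol among the 24108 rows of an RNA-seq table, and each of the 10 had 1 row. The cells were MDA-MB-231, an established triple-negative breast cancer line of the basal subtype, and all 6 samples were transduced with a lentivirus for 48 h and selected for 24 h in 0.5 µg/ml puromycin. Of these samples, 3 carried an LKO short hairpin against luciferase (shControl in the labels, shCtr below) and 3 carried a hairpin against ZNF148 (shZnf148 in the labels, shZNF148 below). The study asked which genes change when the zinc finger transcription factor ZNF148 is depleted. One hairpin was used for each arm, so a response to ZNF148 loss and a response to that hairpin cannot be told apart. The labels do not say whether the replicates were separate cultures, and p-values then measure only the spread between these samples.

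MYC is a transcription factor that binds the E-box word CACGTG as a dimer with MAX and activates genes for growth, ribosome production and metabolism. MXD1, MXI1, MXD3, MXD4, MNT and MGA compete for MAX and repress the same kind of site, the MXD proteins and MNT through the SIN3 histone deacetylase complex and MGA as part of a polycomb complex. MLX is a MAX-like protein that pairs with MLXIP (MondoA), a sensor of glucose phosphates, and also with MNT and some MXD proteins. In breast cancer MYC is often amplified or overexpressed, and the balance between MYC and its antagonists is tied to proliferation and differentiation.

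Sequences are shown first for what bears on how the rows can be read. The row of MXD4 also names MIR4800, a microRNA gene. In RefSeq (GRCh38.p14) the MIR4800 hairpin is 80 bases long and lies at chr4:2250077-2250156 on the minus strand, and all 80 bases fall inside the 3′ UTR of the canonical MXD4 transcript of GENCODE release 44, which is 3871 bases long and on the same strand. A fragment from this stretch can therefore be assigned to either gene, and the value of the row cannot be split between MXD4 and MIR4800 here. The mature sequence held here, that of the 3p arm, is given with its seed (bases 2 to 8) in capitals.
hsa-miR-4800-3p: cAUCCGUCcgucuguccac

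Promoters, from 250 bases before to 50 bases after the RefSeq start site, were held for 9 members, all but MYC. The E-box CACGTG, which reads the same on both strands, was present in 3 of these 9, against 10.4% of the 8520 promoters of tested genes. These were the promoters of MXD4 (chr4:2262330-2262359, minus strand, word starting at -238 from the start site), MNT (chr17:2401236-2401265, minus strand, at -193) and MLX (chr17:42567038-42567067, plus strand, at -50), each shown 5′ to 3′ on the strand of the gene with the E-box in capitals. A match is a description of the letters in this window and says nothing on whether a protein binds there. The members and the word were chosen with earlier results of these data known.
MXD4: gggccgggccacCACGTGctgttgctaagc
MNT: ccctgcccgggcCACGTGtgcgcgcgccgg
MLX: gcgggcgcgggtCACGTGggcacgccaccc

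The sequence listed by the study for the ZNF148 hairpin is shown because a hairpin can also act on transcripts that pair with its seed. The capitals mark the 7 bases that would pair with bases 2 to 8 of the guide strand, if the guide starts at the first base complementary to the listed sequence.
shZNF148 target: cccttggtgaatgTAAATGAt
The 7-base word was present in the 3′ UTR of 2 of the 10 members, MXD1 and MYC, against 22.4% of the 10199 tested genes with a 3′ UTR in GENCODE. MYC, with 1 word, was lower in shZNF148 and passed the test below (adjusted p = 0.0431 from limma), and MXD1, with 2 words, did not pass. The word was not found in the 3′ UTR of MXI1 or MXD4. The share in the members was near that of all tested genes. The part of the word in the level of MYC or of any other member was not tested. The sites in MXD1 read as follows, with the word in capitals.
MXD1, first site: cctcagagaTAAATGAgatctccat
MXD1, second site: gtggattccTAAATGAttccaaagt

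Values were deposited in FPKM (by definition, fragments scaled to transcript length and to the mapped fragments of the sample), which allows levels of different genes to be set side by side. The length used for the joined row of MXD4 and MIR4800 is not known, so its place beside other genes is uncertain. The number of reads is unknown. The steps between low values gave a depth of 0.806 to 1.13 relative to shCtr replicate 1, with the lowest in shZNF148 replicate 3. ZNF148 was between 3.72 and 4.36 FPKM in shCtr and between 0.282 and 0.914 FPKM in shZNF148. Of 5 markers set for this line, VIM, CD44, KRT18, EGFR and AXL were at 38.0 FPKM or more in every sample, with 4 of the 5 past the adjusted p and lower in shZNF148 (summed level 2874 to 3018 FPKM in shCtr and 2366 to 2432 FPKM in shZNF148), while ESR1 was listed at 0 and PGR and CDH1 were under 1 FPKM. EPCAM, set as low, reached 11.1 FPKM. The row of ERBB2, which also names a microRNA, was 20.1, 126 and 20.1 FPKM in replicates 1, 2 and 3 of shCtr. In shZNF148 that row was 24.8, 125 and 21.9 FPKM, so replicate 2 was the highest in both groups. Among 9 markers of leukocytes, endothelium and fibroblasts, 6 were under 1 FPKM in every sample, and CD68, which is not restricted to leukocytes, had the highest value, 128 FPKM. The summed level of the 9 was 114 to 138 FPKM in shCtr and 76.2 to 90.1 FPKM in shZNF148, and the part of either marker list in the results was not tested. In bulk RNA, fewer cells of a type and less RNA per cell cannot be told apart.

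The comparison of 3 shCtr with 3 shZNF148 samples was fitted with limma on log2(FPKM + 1) over the 11777 rows whose mean reached 1 FPKM, with Benjamini-Hochberg adjustment over all of them. All 10 members passed this filter. Coordinates of the members outside chromosome 8 are those of GENCODE on GRCh38. Fold changes below are differences on this scale, which understates the change of low genes. Called rows had to clear 1.5-fold as well as an adjusted p of 0.05. By that rule 2 of 10 members were called, MXI1 and the joined row of MXD4 and MIR4800, both lower in shZNF148. Of all tested rows 5.49% were called, 1.83% higher and 3.66% lower. Means are given ± SD over the 3 samples of a group. At the adjusted p alone 5 of 10 members passed, against 13.6% of all tested rows. These were MXI1, the row of MXD4 and MYC, which were lower (8.13% of all tested rows), and MAX and MLX, which were higher (5.46%). In 8 of 10 members the values of one group lay wholly beyond those of the other, all but MXD1 and MNT, which was the case in 41.0% of tested rows. The exact permutation test, two-sided, reached its floor of p = 0.1 for 3 against 3 in each of these 8. The members were chosen with earlier results of these data known, so their shares beside all tested rows are a description only.

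**Figure D1:**
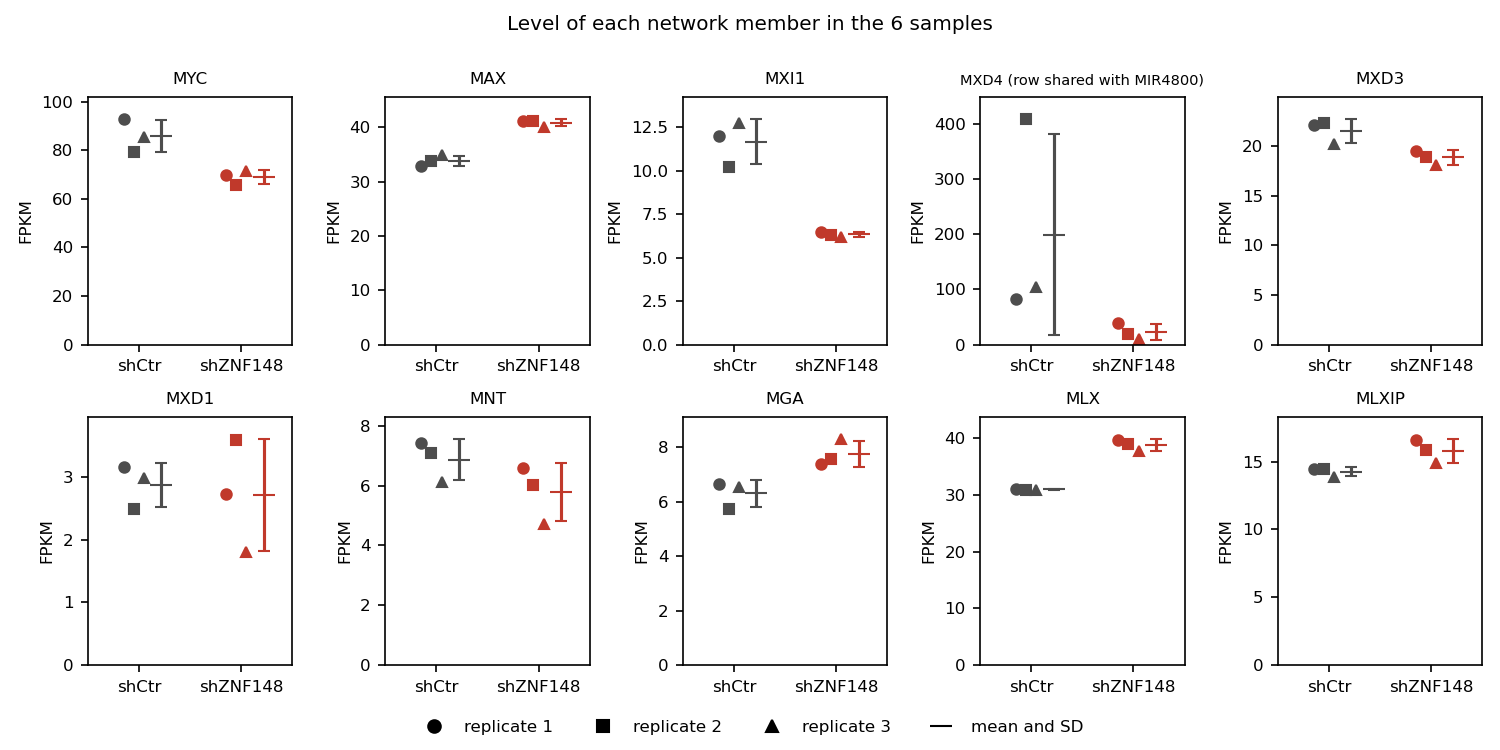
FPKM of the 10 members, 1 panel each, with the 3 shCtr samples in grey and the 3 shZNF148 samples in red, marker shape for the replicate number, and a bar and whiskers for the group mean and SD (n = 3). Every axis starts at 0; MXI1 separates with the shZNF148 samples between 6.20 and 6.48 FPKM, while the row of MXD4 is spread from 82.5 to 408 FPKM within shCtr.

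MYC itself was lower in shZNF148. Replicates 1, 2 and 3 of shCtr had 92.8, 79.4 and 85.3 FPKM, and those of shZNF148 had 69.8, 65.7 and 71.3 FPKM. Values are given in this order throughout. All shZNF148 values lay below the lowest shCtr value. The mean went from 85.8 ± 6.72 to 68.9 ± 2.93 FPKM, or 80.3% of the control mean. MYC thus had a log2 fold change of -0.31 (standard error 0.08, 95% interval -0.49 to -0.13, adjusted p = 0.0431 from limma). This call was close to the threshold. With any 1 sample left out the adjusted p was between 0.0635 and 0.138 and MYC no longer passed. It also missed the threshold with quantile normalization (adjusted p = 0.0784 from limma), where the log2 fold change was -0.25. The same held with no filter on low values (0.0555), no mean-variance trend (0.0595) and the replicate block (0.0710). MYC passed in 5 of 15 alternatives.

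MAX, the partner that MYC and the antagonists share, moved the other way. It was 33.0, 33.8 and 34.8 FPKM in shCtr and 41.3, 41.2 and 40.1 FPKM in shZNF148, so that the groups did not overlap and each was tight. The mean rose from 33.9 ± 0.933 to 40.9 ± 0.664 FPKM, which is 0.26 on the log2 scale (standard error 0.06, adjusted p = 0.0325 from limma). MAX passed without shZNF148 replicate 2 (adjusted p = 0.0346), and missed the threshold with any other sample left out (adjusted p from 0.0544 to 0.122). MAX is at chr14:65006174-65102695, minus strand, and MYC is on chromosome 8.

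MXI1, also known as MXD2, is a repressor that takes MAX from MYC and recruits SIN3. Of the members with a row of their own it changed most. Its level was 12.0, 10.2 and 12.8 FPKM in shCtr and 6.48, 6.32 and 6.20 FPKM in shZNF148. The shZNF148 samples were nearly identical to each other and all far below the lowest control. The mean fell from 11.7 ± 1.30 to 6.34 ± 0.140 FPKM, to 54.3% of the control mean. For MXI1 limma gave a log2 fold change of -0.78 (standard error 0.10, 95% interval -1.01 to -0.56, adjusted p = 0.0111), and its unadjusted p ranked 100 among the 11777 tested rows. The gene is at chr10:110207605-110287365, plus strand. Without shCtr replicate 1 or shCtr replicate 3 the adjusted p was 0.0745 and 0.0711, and it was at most 0.0438 without any other sample, with the log2 fold change between -0.87 and -0.72 throughout.

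The row that holds MXD4 and MIR4800 had the largest change of the 10 and also the largest spread. MXD4 (chr4:2247432-2262109, minus strand) is a MXD family repressor found in differentiating and resting cells. The row was 82.5, 408 and 105 FPKM in shCtr and 39.0, 18.7 and 10.9 FPKM in shZNF148. All shZNF148 values were below all shCtr values, but shCtr replicate 2 stood far above the other controls. The group means were 199 ± 182 and 22.9 ± 14.5 FPKM. For the row limma gave a log2 fold change of -2.87 (standard error 0.68, 95% interval -4.48 to -1.25, adjusted p = 0.0407). Without shCtr replicate 2 it was -2.16 (adjusted p = 0.0783), and with any 1 sample left out the adjusted p lay between 0.0640 and 0.106.

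The spread of this row was set beside that of other rows that join a gene with a microRNA, of which 102 were tested. The SD of log2(FPKM + 1) over the 3 shCtr samples was 1.24 for the row of MXD4, larger than in 99.0% of tested rows. The median SD was 0.10 in rows joined with a microRNA and 0.09 in the 11675 other rows, so that most joined rows were as even as the rest. The highest part of the range differed, with a 90th percentile of 0.89 in the joined rows and 0.24 in the others. A total of 8 of the 102 joined rows, MXD4 included, had a spread between controls at least as large as that of the MXD4 row. Rows joined with a microRNA were called at 7.84% and the others at 5.47%. The part of MIR4800 in the change of this row was not tested.

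**Figure D2:**
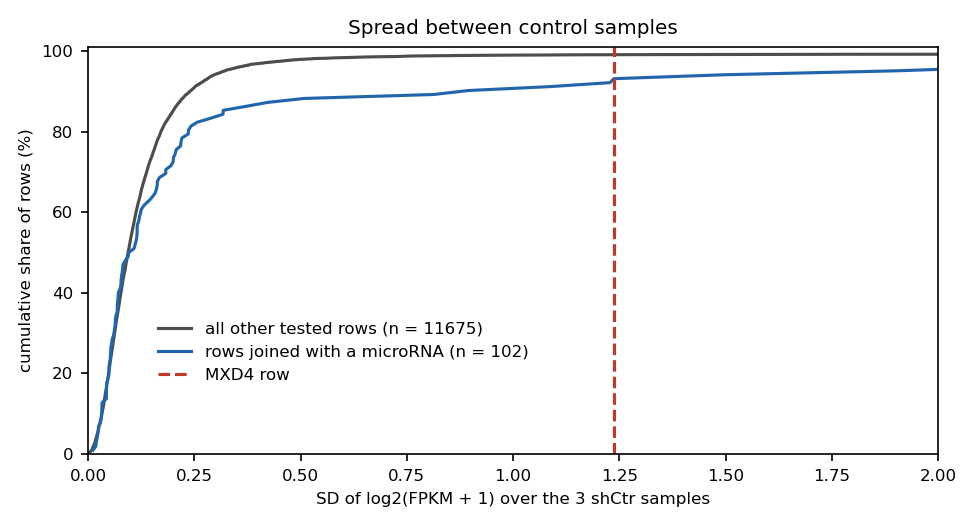
Cumulative share of rows (%) against the SD of log2(FPKM + 1) over the 3 shCtr samples, for the 102 tested rows joined with a microRNA (blue) and the 11675 others (grey), with the row of MXD4 as a dashed line at 1.24. The curves run together at small SD and part at the top, where the 90th percentile is 0.89 in the joined rows and 0.24 in the others; the horizontal axis stops at 2.

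MXD3 (chr5:177301461-177312757, minus strand), a MXD protein expressed in cycling cells, did not pass the test. It was 22.1, 22.2 and 20.1 FPKM in shCtr and 19.5, 18.9 and 18.1 FPKM in shZNF148. The groups did not overlap, but the log2 fold change of -0.18 (standard error 0.07, 95% interval -0.35 to -0.01) had an adjusted p of 0.124 from limma and did not pass.

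MXD1 (chr2:69897688-69942945, plus strand), induced in differentiation of several cell types, was the lowest member. It was 3.17, 2.49 and 2.99 FPKM in shCtr and 2.73, 3.60 and 1.81 FPKM in shZNF148. The shZNF148 values covered the whole control range, with the lowest in the replicate of lowest depth. On the log2 scale the difference was -0.09 (95% interval -0.55 to 0.37, adjusted p = 0.772 from limma) and turned to 0.10 without shZNF148 replicate 3.

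MNT (chr17:2384073-2401104, minus strand), a widely expressed antagonist that pairs with MAX and MLX, was 7.42, 7.08 and 6.11 FPKM in shCtr and 6.58, 6.03 and 4.71 FPKM in shZNF148. The groups overlapped, and the log2 fold change of -0.22 (95% interval -0.54 to 0.09, adjusted p = 0.277 from limma) did not pass. The lower end of that interval is a fold of 0.690.

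MGA (chr15:41621134-41773081, plus strand), the largest protein of the network and the scaffold of a variant polycomb complex, was the antagonist with higher values in shZNF148. It was 6.66, 5.75 and 6.53 FPKM in shCtr and 7.40, 7.57 and 8.30 FPKM in shZNF148. No value of one group reached the other, but the log2 fold change of 0.26 (standard error 0.09, 95% interval 0.05 to 0.47) had an adjusted p of 0.0958 from limma. Of the 6 antagonists, 2 passed the adjusted p, MXI1 and the row of MXD4.

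In the MLX arm, MLX rose and MLXIP did not pass. MLX (chr17:42567072-42573239, plus strand) was 31.1, 30.8 and 30.9 FPKM in shCtr and 39.7, 39.1 and 37.7 FPKM in shZNF148. Its control values were among the most even of the table, with an SD on the log2 scale smaller than in 11697 of the 11777 tested rows. The mean rose from 31.0 ± 0.145 to 38.8 ± 0.991 FPKM, which is 0.32 on the log2 scale (standard error 0.06, 95% interval 0.18 to 0.45, adjusted p = 0.0219 from limma). MLX missed the threshold when a shCtr sample or shZNF148 replicate 1 was left out (adjusted p from 0.0640 to 0.0950) and passed without shZNF148 replicate 2 (0.0218) or 3 (0.0384).

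MLXIP (chr12:122078756-122147344, plus strand) was 14.4, 14.4 and 13.9 FPKM in shCtr and 16.6, 15.9 and 14.9 FPKM in shZNF148. Its groups did not overlap, and the log2 fold change of 0.14 (95% interval -0.03 to 0.30, adjusted p = 0.216 from limma) did not pass.

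**Figure D3:**
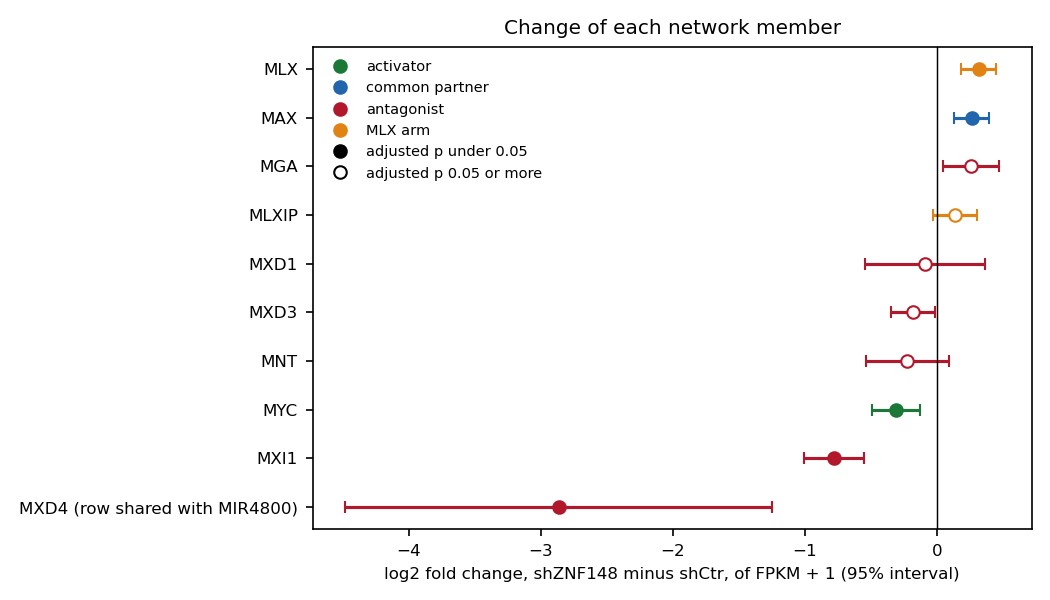
Log2 fold change of each member (shZNF148 minus shCtr, on FPKM + 1) with its 95% interval from limma, coloured by role, filled where the adjusted p was under 0.05. The row of MXD4 (-2.87) has by far the widest interval, MXI1 follows at -0.78 and MYC at -0.31, and MAX (0.26) and MLX (0.32) lie to the right of 0.

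Levels per length placed MYC among the most abundant members in both groups. In shCtr the order by mean was the row of MXD4, MYC, MAX, MLX, MXD3, MLXIP, MXI1, MNT, MGA and MXD1. Neighbours in that order overlapped in their values for the row of MXD4 and MYC and for MNT and MGA. In shZNF148 the order was MYC, MAX, MLX, the row of MXD4, MXD3, MLXIP, MGA, MXI1, MNT and MXD1. The row of MXD4 overlapped with both of its neighbours there, and MXI1 overlapped with MNT. MXI1 thus stood above MNT and MGA in every shCtr sample and below MGA in every shZNF148 sample.

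Activators were set against antagonists as ratios of FPKM within a sample, given as a description with no test. The summed level of the 6 antagonists over MYC was 1.44, 5.75 and 1.80 in shCtr and 1.17, 0.930 and 0.701 in shZNF148. The shCtr mean was 3.00, and 1.62 without shCtr replicate 2. This separation rested on the row of MXD4, which made up 61.6% to 89.5% of the sum in shCtr and 21.8% to 47.7% in shZNF148. Without that row the ratio was 0.554, 0.602 and 0.569 in shCtr and 0.612, 0.646 and 0.549 in shZNF148, and the groups overlapped. The summed level of these 5 antagonists was lower in every shZNF148 sample (39.1 to 42.7 FPKM) than in any shCtr sample (47.8 to 51.4 FPKM), as was MYC.

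The make-up of those 5 antagonists differed between the groups. MXI1 was 21.4% to 26.3% of their sum in shCtr and 14.9% to 15.9% in shZNF148. MGA was 12.0% to 13.5% in shCtr and 17.3% to 21.2% in shZNF148. The shares of MXD1, MXD3 and MNT overlapped between the groups.

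Relative to its partner, MYC was lower in shZNF148. The ratio of MYC to MAX was 2.81, 2.35 and 2.45 in shCtr and 1.69, 1.59 and 1.78 in shZNF148, with means of 2.54 ± 0.246 and 1.69 ± 0.0932. Relative to MXI1, MYC was higher in shZNF148. The ratio of MYC to MXI1 was 7.73, 7.76 and 6.69 in shCtr and 10.8, 10.4 and 11.5 in shZNF148.

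**Figure D4:**
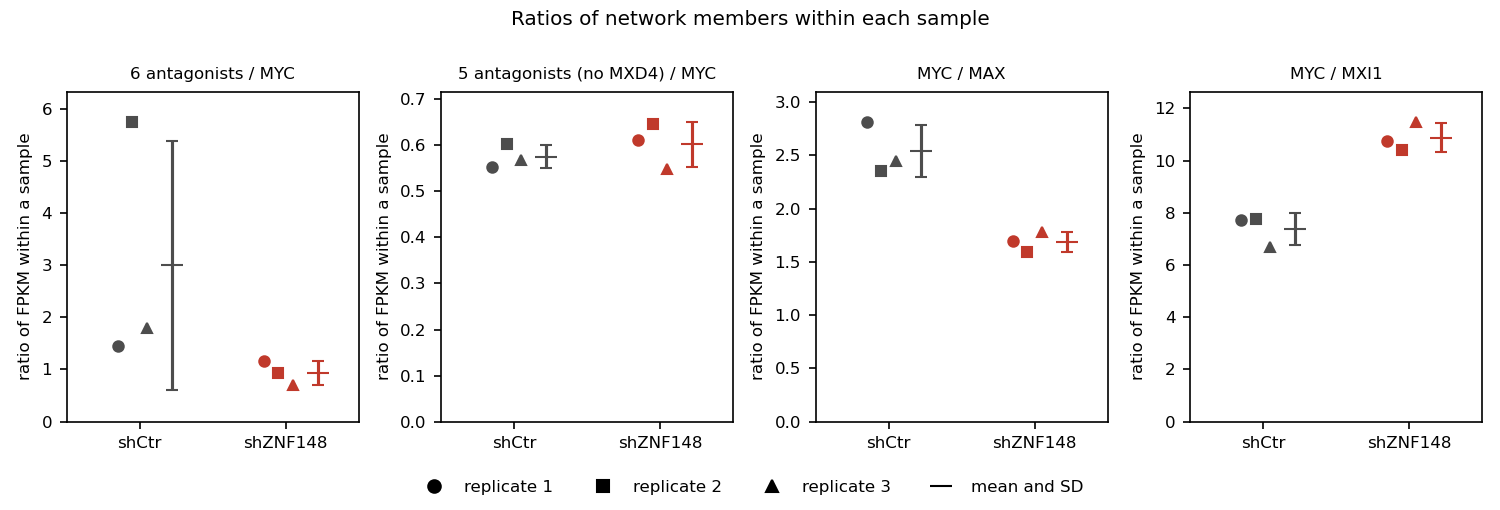
Ratios of FPKM within each sample, with shCtr in grey, shZNF148 in red, marker shape for the replicate number, and a bar and whiskers for the mean and SD (n = 3). From left to right the panels show the 6 antagonists over MYC, the same without MXD4, MYC over MAX and MYC over MXI1; the groups overlap in the second panel (0.549 to 0.646) and not in the others.

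Other members of the wider E-box family were read from a list of 11 genes, of which 8 were tested. MYCN, a MYC paralog of neural and embryonic tissue, was listed at 0 in all 6 samples. MYCL, listed as MYCL1, was between 0.539 and 0.723 FPKM, and MLXIPL (ChREBP), the paralog of MLXIP in liver and fat, was between 0.646 and 1.45 FPKM. MYC was therefore the MYC gene with the highest level here. TFEB, a regulator of lysosome genes that also binds E-boxes, passed the test and rose. It was 5.26, 6.85 and 4.86 FPKM in shCtr and 9.15, 9.24 and 9.05 FPKM in shZNF148, a log2 fold change of 0.62 (adjusted p = 0.0265 from limma). Its relative TFE3 had a log2 fold change of -0.24 (adjusted p = 0.0586) and did not pass. MYCBP, in a row joined with GJA9, had 0.28 (adjusted p = 0.0538), MYCBP2 0.24 (0.0805), USF1 0.25 (0.132), USF2 0.24 (0.0928), MITF -0.23 (0.292) and ZBTB17 (MIZ1) -0.13 (0.522), and none of these 6 passed.

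Genes for proteins that work with the network were described by counts and medians, beside a median of 0.01 and 13.6% past the adjusted p over all tested rows. Of 18 coactivators of MYC, 2 passed, both lower, with a list median of 0.09. These were KAT5 (TIP60), an acetyltransferase, with a log2 fold change of -0.38 (adjusted p = 0.0262 from limma), and RUVBL2, an ATPase of the same complex, with -0.26 (adjusted p = 0.0393).

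Of 16 genes for the turnover of MYC protein, 1 passed higher and 2 lower, with a list median of 0.05. SKP2, an F-box protein that ubiquitinates MYC, rose by 0.42 on the log2 scale (adjusted p = 0.0201 from limma). It was 11.9, 11.6 and 12.1 FPKM in shCtr and 15.8, 17.4 and 15.7 FPKM in shZNF148. AXIN1, a scaffold for MYC degradation, fell by 0.33 (adjusted p = 0.0293). PPP2R5A, a subunit of the PP2A phosphatase that acts on MYC, fell by 1.28 (adjusted p = 0.0103), from 12.3 ± 0.842 to 4.56 ± 1.02 FPKM.

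The SIN3 corepressor, which the MXD proteins and MNT recruit, had 17 genes tested, of which 3 passed higher and 1 lower. The list median was 0.17. BRMS1L rose from 4.95 ± 0.671 to 9.92 ± 0.475 FPKM, which is 0.88 on the log2 scale (adjusted p = 0.0111 from limma). SAP30 and SAP30L, paralogous subunits, rose by 0.43 (adjusted p = 0.0148) and 0.47 (adjusted p = 0.0374). SUDS3, another subunit, fell by 0.69 (adjusted p = 0.0243), from 9.54 ± 1.35 to 5.52 ± 0.700 FPKM.

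Of 13 tested genes of the polycomb complex that holds MGA, 1 passed higher and 1 lower, with a list median of 0.05. RYBP, a bridging subunit, rose by 0.30 (adjusted p = 0.0465 from limma). CBX1, a heterochromatin protein, fell by 0.68 (adjusted p = 0.0333), from 54.1, 59.3 and 57.5 FPKM in shCtr to 38.0, 27.5 and 41.5 FPKM in shZNF148.

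Well known target genes of the network were read from 3 lists, again beside 13.6% of all tested rows past the adjusted p, 5.46% higher and 8.13% lower. These lists, like those above, were chosen with earlier results of these data known, so their shares are a description only. Of 30 tested genes activated by MYC, 2 passed, both lower, and 28 did not. The list median was -0.05, and 20 of the 30 had a log2 fold change below 0. DNPH1, a nucleotide hydrolase first found as a MYC target and listed as C6orf108, fell from 113 ± 6.13 to 59.1 ± 10.2 FPKM, which is -0.94 on the log2 scale (adjusted p = 0.0120 from limma). GNL3 (nucleostemin), a nucleolar GTPase, fell by 0.26 (adjusted p = 0.0382). NCL (nucleolin) averaged 271 ± 15.6 and 266 ± 35.1 FPKM in the control and depleted cells, with -0.03 on the log2 scale (95% interval -0.28 to 0.23, adjusted p = 0.872). ODC1, the first enzyme of polyamine synthesis, averaged 56.0 ± 9.34 and 53.0 ± 3.49 FPKM, with -0.07 (95% interval -0.36 to 0.23, adjusted p = 0.730).

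Of 8 tested genes repressed by MYC, 3 passed (37.5%) and all 3 were lower, where 8.13% of all tested rows passed lower. The list median was -0.26. They were GADD45A (-0.70, adjusted p = 0.0324 from limma) and GADD45B (-0.35, adjusted p = 0.0450), stress-induced regulators of growth arrest, and NDRG1 (-0.51, adjusted p = 0.0301), a gene of hypoxia and differentiation. CDKN1A (p21), an inhibitor of cyclin-dependent kinases, was 98.2, 92.5 and 96.7 FPKM in shCtr and 79.0, 117 and 80.0 FPKM in shZNF148. Its shZNF148 values lay on both sides of the controls, and its log2 fold change of -0.08 (95% interval -0.44 to 0.28, adjusted p = 0.741) did not pass.

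Of 9 tested targets of MLX and MLXIP, 1 passed higher and 2 lower, with a list median of 0.02. PFKFB3, a driver of glycolysis, rose by 0.52 (adjusted p = 0.0173 from limma), while HK2 (hexokinase) fell by 0.43 (adjusted p = 0.0411) and SCD (a fatty acid desaturase) by 0.75 (adjusted p = 0.0150). TXNIP, the gene most closely tied to MLXIP, was 267, 227 and 228 FPKM in shCtr and 177, 447 and 183 FPKM in shZNF148. Replicate 2 of shZNF148 stood above every control and the others below, and the log2 fold change of 0.02 had a 95% interval from -0.80 to 0.84 (adjusted p = 0.973). ARRDC4, the paralog usually induced with TXNIP, was 1.68, 1.97 and 1.66 FPKM in shCtr and 1.21, 2.42 and 1.91 FPKM in shZNF148, with a log2 fold change of 0.02 (adjusted p = 0.956).

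**Figure D5:**
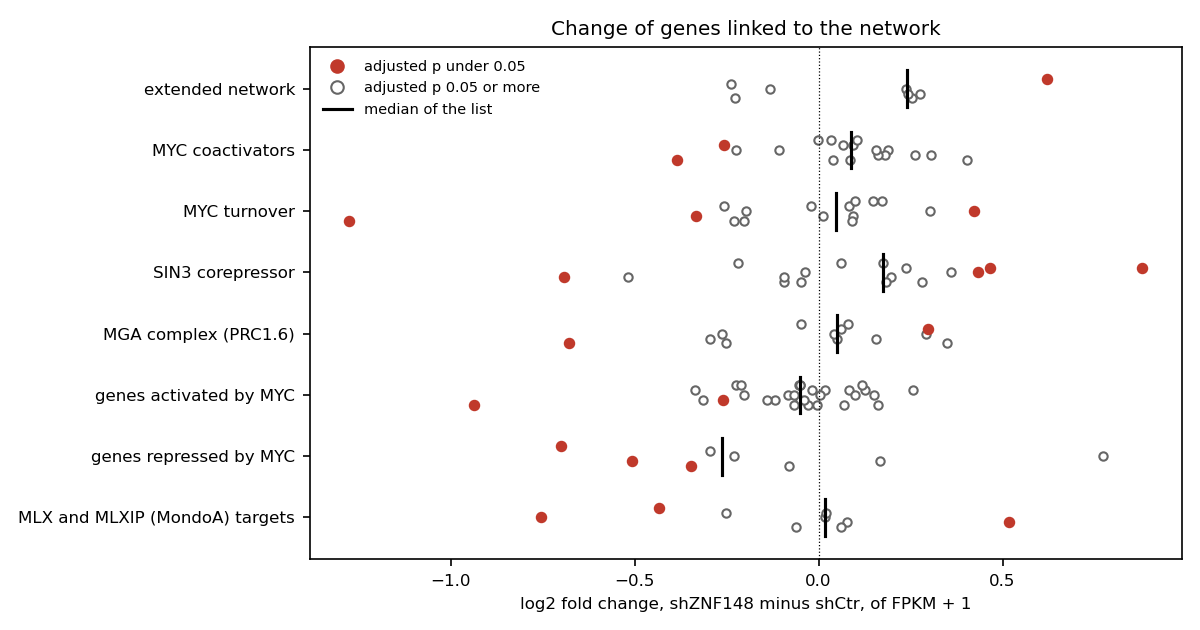
Log2 fold change (shZNF148 minus shCtr, on FPKM + 1) of the tested genes of the 8 lists, 1 point per gene, red where the adjusted p was under 0.05, with a vertical bar at the list median; vertical jitter only separates points. Medians lie between -0.26 (genes repressed by MYC) and 0.24 (extended network), and in 4 of the 8 lists genes passed in both directions.

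The rows most like MYC over the 6 samples were found by Pearson's correlation of log2(FPKM + 1), as a description over points that share 2 groups. They were H1FX (a linker histone, r = 0.997), MAST1 (a kinase, 0.996), FBXO41 (an F-box protein, 0.995), YAP1 (a transcriptional coactivator, 0.995) and WDR27 (a WD-repeat protein, 0.991). With 6 samples such values are common, and 732 rows reached an r of 0.9. H1FX was 82.8, 68.9 and 74.3 FPKM in shCtr and 56.4, 51.7 and 57.0 FPKM in shZNF148, which is the order of the MYC values within shCtr. For the row of MXD4 the most alike were NLE1 (r = 0.995), the joined row of CASP4 and CASP5 (0.993), CPD (0.987), PHLPP1 (0.986) and GMEB2 (0.985), and 257 rows reached 0.9. The joined row of the inflammatory caspases CASP4 and CASP5 was 23.2, 30.9 and 25.2 FPKM in shCtr and 21.0, 17.4 and 16.8 FPKM in shZNF148, with its highest value in shCtr replicate 2 as in the row of MXD4.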

How the data were processed

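The authors deposited 1 table of normalised FPKM values with 1 column per sample, and 0 further columns were left unused. The submitters' processing notes name bcl2fastq 2.17.1.14, TopHat2 2.0.14, Cufflinks 2.2.1 and Cuffnorm 2.2.1 with the builds hg18 and hg19, while the paper's methods name Salmon and GRCh38 for its own test. Which program made these values, and the scaling between samples, are not given in the sources used here. Coordinates were taken from RefSeq and GENCODE on GRCh38, never from the table.

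Groups and replicate numbers came from the sample titles. Values were used as log2(FPKM + 1) with a pseudocount of 1 FPKM and a minimum mean of 1 FPKM, and limma 3.58.1 (R 4.3.3) fitted group as its only term with a mean-variance trend. Called rows passed an adjusted p of 0.05 and 1.5-fold. Exact permutation tests used all 20 arrangements. The fit was tested on simulated data. Read numbers are unknown, so the precision of low values could not be stated.

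The members, gene lists and searched words were chosen with earlier results of these data known. Genes named were all members, ZNF148, the extended network list, list genes past the adjusted p (at most 4 per direction), TXNIP, ARRDC4, ODC1, NCL, CDKN1A, and the 5 rows most like MYC and MXD4. Marker genes were named to check the cell line. For a gene with several rows the one with the highest mean was used. Other steps ran in Python 3.11.15. Alternatives covered the filter, pseudocount, scaling, variance model, replicate block, summing of rows and leaving out each replicate. A further promoter word is not reported here.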

Additional observations from a re-analysis of the deposited data

How the results depend on the processing

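The 10 members were refitted under 15 alternatives (14 for MXD1, which a minimum mean of 5 FPKM removed). Direction was kept in all of them except for MXD1, which ranged from -0.26 (without shZNF148 replicate 2) to 0.10 (without shZNF148 replicate 3). The number of members called was 2, and was 1 with no filter on low values, 1 with a pseudocount of 5 FPKM and 1 with the replicate block, and 0 to 1 with each replicate left out. The number past the adjusted p was 5, and was 3 with no filter, 1 with the replicate block and 0 to 3 with each replicate left out. It was 0 in limma without shCtr replicate 1 and without shCtr replicate 3, where 6 and 7 members respectively had an unadjusted p under 0.05. Of the rows of the 8 lists, 20 of 116 passed, 7 with the replicate block and 0 to 25 with each replicate left out, with 0 again in limma without shCtr replicates 1 and 3, where 35 and 34 rows had an unadjusted p under 0.05. Over all tested rows, 216 were called higher and 431 lower. These were 76 and 204 with a pseudocount of 5 FPKM, 99 and 216 with the replicate block, and 3 to 209 and 19 to 393 with each replicate left out. Leaving out a sample or adding the block leaves fewer degrees of freedom by construction. The counts also differed with the sample left out. Rows called higher and lower were 3 and 26 without shCtr replicate 1, 59 and 142 without shCtr replicate 2, and 3 and 19 without shCtr replicate 3. Without shZNF148 replicates 1, 2 and 3 they were 64 and 206, 168 and 393, and 209 and 357. What lowered the counts was not tested. Same-numbered samples deviated from their group means with correlations of 0.001, -0.088 and 0.030 across rows. The numbers were therefore not taken to pair samples in the main fit. A correlation over all rows cannot show a link held by few rows. The row of ERBB2 was highest in replicate 2 of both groups (126 and 125 FPKM), and the row of MXD4 in replicate 2 of shCtr only (408 FPKM, and 18.7 FPKM in shZNF148). The block changed the side of the threshold for MYC (adjusted p = 0.0710), MAX (0.0887), MLX (0.0660) and the row of MXD4 (0.0666), and MXI1 passed with it (0.0432). The ratio of antagonists to MYC had a mean of 3.00 in shCtr and 0.934 in shZNF148, and without MXD4 of 0.575 and 0.602. With each replicate left out, an alternative also chosen after seeing the data, these means were 1.62 (without shCtr replicate 2) to 3.77 and 0.816 to 1.05. Leaving out rows that name a microRNA, an alternative chosen after seeing the data, left 215 rows called higher and 424 lower. With quantile normalization the median of all rows was 0.02 on the log2 scale, and with median scaling it was -0.002.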
